A study of Mus musculus with 12 samples.

Results

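The cytosolic ribosomal protein genes of mouse cortex were picked by symbol, leaving out Rps3 and symbols containing -ps. The symbols taken were Rpl or Rps followed by a number and an optional a, x, y or l, together with Rplp0, Rplp1, Rplp2 and Rpsa. These were 88 of the 36047 genes measured, and they comprised 50 large-subunit genes, 3 P-stalk genes and 35 small-subunit genes, grouped by symbol. By annotation 82 were protein-coding and 6 were processed pseudogenes, namely Rpl32l, Rpl6l, Rps12l1, Rps3a2, Rps3a3 and the transcribed Rps4l. RNAseq was performed on cortex from WT mice and from *Gde2*KO mice (Gde2-/-) aged 4 or 19 months, with 3 animals per genotype at each age and 1 library per animal. The knockout was constitutive and the labels name no other allele, no Cre, no treatment and no strain. Male and female mice were used in the study, and the labels do not give the sex of an animal. GDE2, the product of Gdpd5, is a membrane enzyme that cuts the GPI anchor of cell-surface proteins. The level of a gene is given as its normalized count, the sum over its transcripts of the estimated reads divided by a size factor of the library. Levels of different genes are compared only as TPM, which also corrects for transcript length. At 19 months the libraries have no replicate number and are called A, B and C.

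Ribosomal proteins build the large and small subunits of the cytosolic ribosome around ribosomal RNA, and each is normally present once per ribosome apart from the acidic P-stalk proteins. Their mRNAs are short and abundant in every cell, and many start with a 5′ terminal oligopyrimidine (TOP) tract, a C followed by a run of C and T, through which mTOR and LARP1 control their translation. They have also left many processed copies in the genome, so that short reads can often be placed at more than one locus. In neurons, ribosomal protein mRNAs are also carried into dendrites and axons.

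The first bases of 5 genes are shown, 4 with a TOP-like run at the annotated start and 1 without. The 30 bases from 15 before to 15 from the annotated start were read from RefSeq (GRCm38.p6) for the 63 genes that the table holds. Capitals mark a C that lies within 5 bases of the start and is followed by at least 4 bases that are each C or T, with that whole run. Rps6, the small-subunit protein phosphorylated downstream of mTOR, lies at chr4:86857353-86857382 (minus strand). Rpl15, a large-subunit protein, lies at chr14:18270972-18271001 (minus strand). Rps15a, a small-subunit gene described further on, lies at chr7:118116133-118116162 (minus strand), and Rplp2 of the P-stalk at chr7:141447636-141447665 (plus strand). Rps13, at chr7:116334176-116334205 (minus strand), has no such run in the window.
Rps6: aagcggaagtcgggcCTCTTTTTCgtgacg
Rpl15: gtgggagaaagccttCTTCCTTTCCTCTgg
Rps15a: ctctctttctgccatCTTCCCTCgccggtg
Rplp2: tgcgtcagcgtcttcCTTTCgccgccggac
Rps13: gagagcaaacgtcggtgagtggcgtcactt
The run was present in 30 of the 63 ribosomal protein genes (47.6%) and in 5718 of all 27025 genes in the same table (21.2%), read on the transcribed strand only.

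The second set of sequences shows members whose reads a near-identical copy can share. Rps13, Rps7 and Rpl29 each have a processed copy whose coding part differs from that of the gene by very few bases, namely 2 of 453 bases for Rps13 against Rps13-ps1, 3 of 582 for Rps7 against Gm6472, and 3 of 480 for Rpl29 against Gm13841. The windows below hold 1 of those differences each, in capitals, with positions counted from 1 at the first coding base and the base of the gene written first. All are on GRCm38. For Rps13 the difference is T411C, at chr7:116332379-116332408 (minus strand, in an exon) in the gene and chr8:87048112-87048141 (plus strand) in the copy. For Rps7 it is T26G, at chr12:28635614-28635643 (minus strand, in an exon) and chrX:152910080-152910109 (minus strand). For Rpl29 it is C72A, at chr9:106430328-106430357 (plus strand, in an exon) and chr5:115802073-115802102 (minus strand).
Rps13: taagcgggtgctcccaccTaattggaaata
Rps13-ps1: taagcgggtgctcccaccCaattggaaata
Rps7: gagcgccaagatcgTgaagcccaatggcga
Gm6472: gagcgccaagatcgGgaagcccaatggcga
Rpl29: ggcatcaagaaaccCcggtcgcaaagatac
Gm13841: ggcatcaagaaaccAcggtcgcaaagatac

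Libraries held 46434269 to 59728493 estimated reads at 4 months and 3707928 to 44604720 at 19 months, where WT A (6734475) and *Gde2*KO A (3707928) were shallow. One estimated read was worth 4.66 normalized counts in 19-month WT A and 8.29 in 19-month *Gde2*KO A, against 0.597 to 0.847 in the other 10 libraries. Gdpd5 (chr7:99381414-99461877) had 684, 702 and 1199 normalized counts in the 4-month WT libraries, 417, 585 and 403 in 4-month *Gde2*KO, 1065, 1129 and 952 in 19-month WT, and 441, 456 and 560.1 in 19-month *Gde2*KO, so the genotypes did not overlap at either age (limma, log2 difference -0.85, SE 0.25, adjusted p = 0.463 at 4 months and -1.11, SE 0.12, adjusted p = 0.0111 at 19 months). By the region markers, 4-month WT 1 and 2 stood apart. Their 6 cortex markers summed to 4502 and 5850.1 against 12043 to 13763 in the other 4-month libraries, their 8 hippocampus markers summed to 22925 and 22110 against 5512 to 8095, and their 8 striatum markers to 7909 and 6030.2 against 33961 to 92686. The cortex marker Fezf2 went the other way, with 1473 and 1547 against 658 to 1236. The hippocampus marker Wfs1 overlapped, with 3132 and 4274 against 2538 to 3779. At 19 months, 4 Y-linked genes summed to 371 in *Gde2*KO A and 4224 to 4797 in the other libraries, and at 4 months to 251 to 369.7. The part of these differences in the results below was not tested. The ages were also separate sets of libraries, and the Y-linked sums ran with age except in 19-month *Gde2*KO A, so age, the handling of each set and the sex of the animals cannot be told apart.

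The ribosomal protein genes were highly expressed in every library. They held between 0.978% and 1.92% of all normalized counts and between 4.05% and 6.53% of TPM. By TPM, the large subunit held 53.7% of the members' total, the small subunit 40.7% and the P-stalk 5.62%. The 8 genes of highest TPM held 26.7% of it. Rpl13a, a large-subunit protein also known for translational silencing of inflammatory mRNAs, ranked first with a mean of 2250 TPM over the 12 libraries, followed by Rplp1 of the P-stalk (2064), the small-subunit genes Rps15 (1624), Rps14 (1561) and Rps21 (1486), Rpl41 (1253), which encodes a very short basic peptide, Rps27 (1107) and Rps24 (1078). These means include 4-month *Gde2*KO 3, which had 4266 TPM of Rpl13a against 1566 to 2631 in the other 11 libraries. Over those 11 libraries the same 8 genes came first, but Rps24 (941) stood above Rps27 (911). At the other end, Rps12l1 was at 0 in every library, and the lowest above 0 were Rpl6l (0.0464 TPM), Rpl32l (0.574), Rpl39l (0.818), Rpl3l (0.909), Rpl10l (1.58) and Rps3a2 (3.02). A mean of 50 normalized counts or more over the 12 libraries was reached by 81 members, 45 of the large subunit, 33 of the small subunit and all 3 of the P-stalk.

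One library stood apart from the rest for these genes. The members held 1.16%, 1.10% and 1.18% of all normalized counts in the 4-month WT libraries (1.15% ± 0.0434, SD, n = 3) and 1.15%, 1.16% and 1.92% in the 4-month *Gde2*KO libraries (1.41% ± 0.441, SD, n = 3). *Gde2*KO 3 lay above the other 5 libraries, and the other 5 overlapped. At 19 months the shares were 1.03%, 1.01% and 1.05% in WT (1.03% ± 0.0213, SD, n = 3) and 0.983%, 0.980% and 0.978% in *Gde2*KO (0.980% ± 0.00283, SD, n = 3). By this share all 19-month *Gde2*KO libraries were below all 19-month WT libraries, and both were below every 4-month library. By share of TPM the 19-month genotypes overlapped, with every library still below every 4-month library. That share was 4.231%, 4.260% and 4.303% in 19-month WT and 4.264%, 4.051% and 4.143% in 19-month *Gde2*KO. In bulk tissue, fewer cells that express a gene and less of its RNA per cell cannot be told apart.

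**Figure D1:**
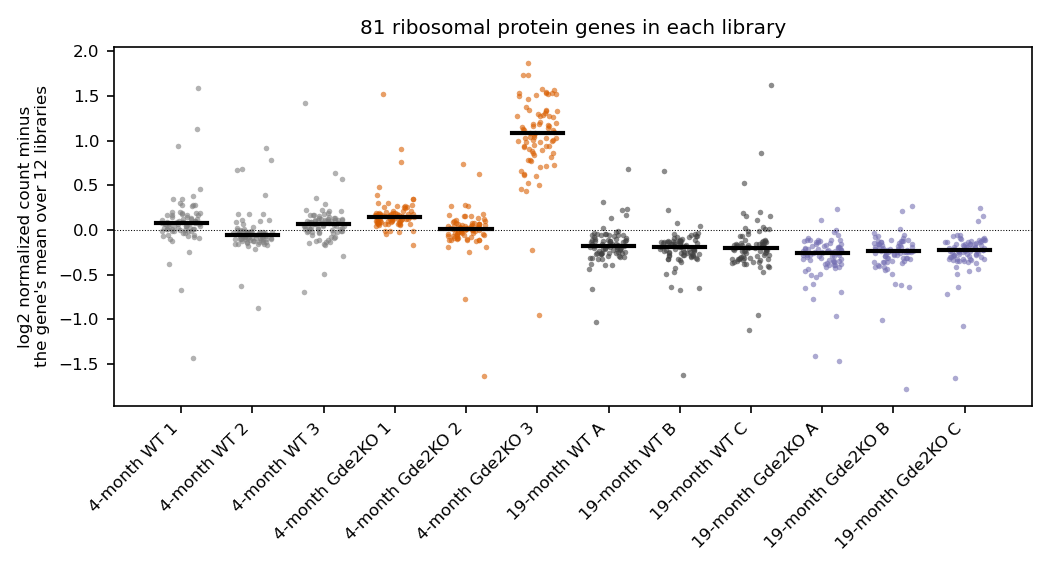
Log2 normalized count of each of the 81 ribosomal protein genes with a mean of 50 or more, minus the mean of that gene over the 12 libraries, by library; each point is a gene and each bar the median. The median of 4-month *Gde2*KO 3 lies at 1.08, those of the other 4-month libraries lie between -0.0595 and 0.148, and those of the 19-month libraries lie between -0.256 and -0.181.

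The plot of the genes by library shows that the higher level in 4-month *Gde2*KO 3 ran through nearly all of them. This library was the highest of the 6 at 4 months for 78 of the 81 genes. Its level was a median of 2.03 times the mean of the other 5 libraries, 2.05 times over the large subunit, 2.02 over the small subunit and 1.85 over the P-stalk. Rps27, a small-subunit zinc-finger protein, had 2558, 2499.7 and 3199 normalized counts in 4-month WT, 2895 and 2822 in *Gde2*KO 1 and 2, and 9092 in *Gde2*KO 3, which was the largest ratio (3.25). Rpl39, an X-linked gene for a very short protein at the exit tunnel, followed with 1853, 1502 and 1703 in WT and 1867, 1696 and 5465 in *Gde2*KO (ratio 3.17). In both genes only *Gde2*KO 3 left the range of the others.

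The exceptions in that library were few. Rps13 was lower there (389.9 against a mean of 1058.5 in the other 5, ratio 0.368), as were the pseudogenes Rps4l (ratio 0.608), a copy of the X-linked Rps4x, and Rps3a3 (ratio 0.820), a copy of Rps3a1. Rpl10, the X-linked large-subunit protein that completes the subunit for joining, was the highest there by the smallest margin of the large subunit (4634 against 3443 to 4353, ratio 1.20). With the reads of near-identical copies added, Rps13 stood at 1.88 times the others in that library, and the median over the 81 genes was 2.02.

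Of the P-stalk genes, which recruit elongation factors, Rplp0 had 6349.9, 5326 and 5475 normalized counts in 4-month WT and 5701, 4951 and 9996 in 4-month *Gde2*KO. Rplp1 had 11023, 9573 and 10568 in WT and 11226, 9789 and 20678 in *Gde2*KO. Rplp2 had 2849, 2519 and 2748 in WT and 2791, 2627 and 5006 in *Gde2*KO. All 3 therefore stood at 1.80 to 1.98 times the other libraries in *Gde2*KO 3, while *Gde2*KO 1 and 2 lay in the WT range for Rplp2 and in or just outside it for Rplp0 and Rplp1. Members with the pyrimidine run had a median ratio of 2.17 (29 genes, from 1.49 to 3.25) and those without it 1.94 (30 genes, from 0.368 to 2.89), so the ranges overlapped.

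Other gene lists moved in the same library to unequal extents. Against the median library of its age, 4-month *Gde2*KO 3 had a median log2 level of 1.01 for the large subunit, 1.01 for the small subunit, 0.85 for the P-stalk, 0.89 for the respiratory chain (89 genes), 0.70 for mitochondrial ribosomal proteins (78 genes), 0.63 for 1422 other genes with short mRNAs, 0.59 for 18 other ribosome-associated and TOP genes, 0.49 for translation initiation factors (37 genes), 0.34 for ribosome biogenesis factors (50 genes) and 0.18 for all other genes with a mean of 50 or more. The 16 TOP regulators, which include Mtor, Larp1 and the 4E-BP genes, stood at -0.03. Total TPM was 1472299 in this library and 1003570 to 1103966 in the other 4-month libraries. The 6 microglia markers summed to 8671 there against 4941 to 6639 in the other 4-month libraries, with a median log2 level of 0.61, and the 5 blood markers to 11994 against 3400 to 8690, with a median of 0.66. The 6 astrocyte markers had their lowest sum of the age there (88223 against 95980 to 116350), and Slc1a2 was low (51737 against 62615 to 69956). Their median of 0.109 lay within the range of the other 4-month libraries (-0.0951 to 0.111), and Slc1a3 was highest there (19346 against 14609 to 16341). The 8 neuron markers had a median of 0.17, within the range of the other 4-month libraries (-0.24 to 0.20), and their higher sum (296551 against 216897 to 263724) was carried largely by Snap25, a synaptic protein gene (110535 against 55757 to 81678). The part of short mRNA length, cell content or library handling in the higher level of the ribosomal protein genes was not tested.

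**Figure D2:**
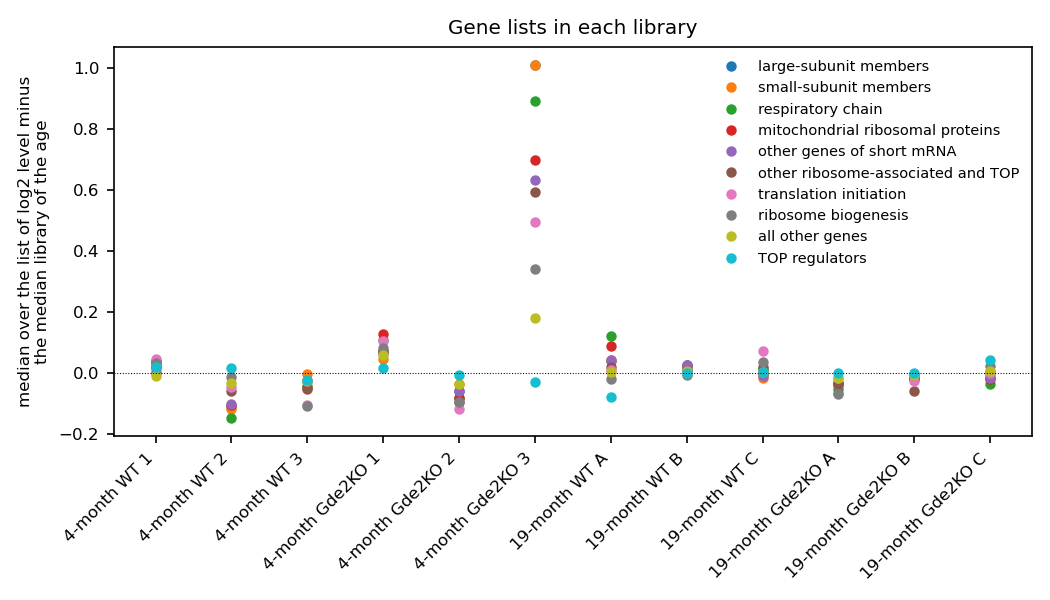
Median over each gene list of the log2 level minus that of the median library of the same age, for the 12 libraries; points of 1 colour are 1 list. All lists but the TOP regulators lie between 0.18 and 1.01 in 4-month *Gde2*KO 3, and every list lies between -0.15 and 0.13 in the other 11 libraries.

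2 other genes of the ribosome were highest in the same library. Fau, the fusion gene of Rps30, had 4663, 4297 and 5231 normalized counts in 4-month WT and 5341, 4695 and 9772 in 4-month *Gde2*KO. Rack1, the scaffold on the small subunit, had 5348, 4941 and 5054 in WT and 5415, 4912 and 9493 in *Gde2*KO. The first 2 *Gde2*KO libraries lay in or next to the WT range in both genes, and neither difference passed (limma, log2 differences 0.41 and 0.31, adjusted p = 0.516 and 0.558).

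The comparison of genotypes at 4 months asked which genes differ in younger adults that lack GDE2. By limma, 0 of the 83 ribosomal protein genes tested passed an adjusted p of 0.1 with a natural-log fold change above 0.5, against 0.105% of all genes called higher and 0.0210% called lower. At an unadjusted p under 0.05 there were 3, Rpl11, Rpl29 and Rpl3l, all higher in *Gde2*KO, while 1509 of all 19035 genes tested were higher and 516 lower at that p. The median log2 difference was 0.385, against 0.108 over all genes tested, and 78 of 83 were above 0. Without *Gde2*KO 3 the median was 0.055, against 0.040 over all genes, 66 of 83 were above 0, and 76 of 83 lay within 0.25 of 0. The members thus stood higher together in 1 library, and differed little from WT in the other 2. Scaling by median-of-ratios moved the median of all genes to 0.01 and that of the members to 0.28. Without WT 1 and 2, whose region markers differed, the median of the members was 0.36 and the count stayed at 0.

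Few genes separated the genotypes at 4 months. Every *Gde2*KO library was above every WT library for 6 of 83, among them Rpl17, Rpl26, Rpl29, Rpl3l and Rpsa, while 11.1% of all genes tested did so, and 0 of 83 were below, against 4.26% of all genes. Rpsa, the laminin receptor precursor of the small subunit, had 8596, 8377 and 8868 normalized counts in WT and 10093, 8898 and 19770.0 in *Gde2*KO (limma, log2 difference 0.49, SE 0.28, adjusted p = 0.495). Rpl17, near the exit tunnel, had 6470.1, 6236 and 7231 in WT and 7279, 7251 and 19148 in *Gde2*KO (0.60, SE 0.35, adjusted p = 0.501), and the groups were nearly in contact.

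Rpl29, a large-subunit protein that also binds heparin, had the largest difference at 4 months. It had 2049.8, 1785 and 2012 normalized counts in WT and 4283, 3949 and 6549 in *Gde2*KO, so the groups were far apart in every library (limma, log2 difference 1.30, SE 0.20, adjusted p = 0.122). Without *Gde2*KO 3 the difference was 1.08 (SE 0.11, adjusted p = 0.108). Its copies Gm13841 (chr5) and Gm8210 (chr1) each had 364, 318 and 385 normalized counts in WT and 4.84, 1.79 and 5.80 in *Gde2*KO, the opposite order. The sum of Rpl29 and all its copies was 2783, 2430.2 and 2792 in WT and 4297, 3955 and 6570.1 in *Gde2*KO, and the difference of the sums was 0.85 (SE 0.20, adjusted p = 0.461). At 19 months Rpl29 had 4037, 2087 and 3707 in WT and 3831, 3783 and 3859 in *Gde2*KO, and the groups overlapped (0.28, SE 0.21, adjusted p = 0.751).

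The remaining members of largest difference at 4 months did not pass. Rps7 had -0.64 (SE 0.82) and is described below with its copy. Rps14 had 0.62 (SE 0.33, adjusted p = 0.481), Rpl39 0.62 (SE 0.40, adjusted p = 0.516) and Rps27 0.62 (SE 0.42, adjusted p = 0.523). Without *Gde2*KO 3 these 3 differences were 0.21, 0.08 and 0.06. Rps4l had 616, 512 and 346 normalized counts in WT and 602, 188 and 275 in *Gde2*KO, which overlapped (-0.60, SE 0.41, adjusted p = 0.526). Rpl3l, a low-expressed relative of Rpl3 known from striated muscle, had 10.1, 12.7 and 10.7 in WT and 15.7, 25.4 and 20.7 in *Gde2*KO, without overlap (0.83, SE 0.33, adjusted p = 0.463).

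**Figure D3:**
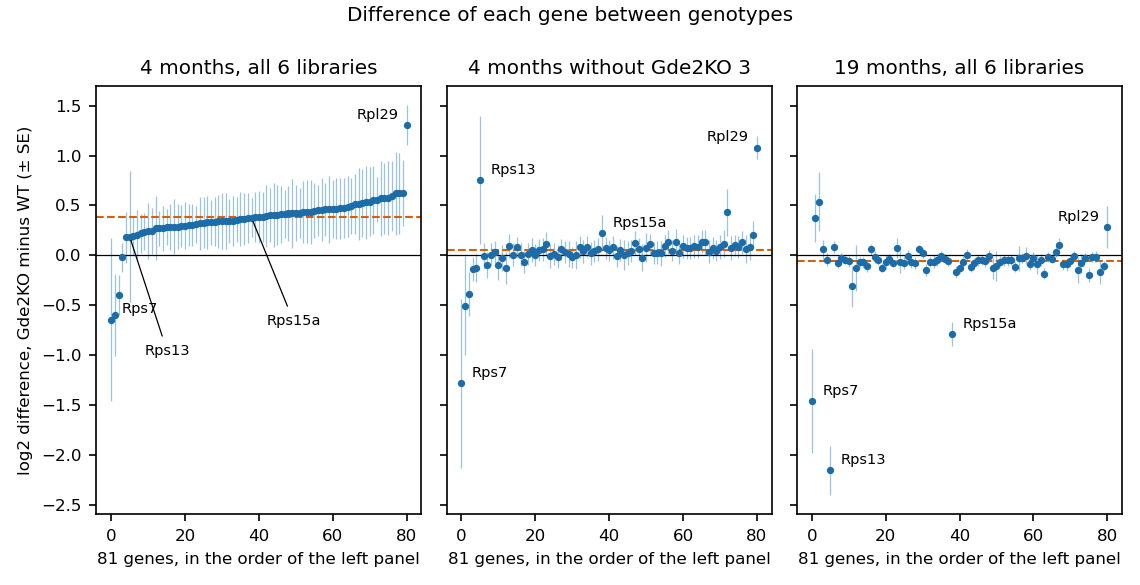
Log2 difference in normalized count of each of 81 ribosomal protein genes between *Gde2*KO and WT, with the standard error. Panels show 4 months with all 6 libraries, 4 months without *Gde2*KO 3, and 19 months. Genes keep the order of the left panel and the dashed line is their median. The median is 0.385 on the left, 0.055 in the middle and -0.053 on the right, where Rps13 (-2.15), Rps7 (-1.46) and Rps15a (-0.79) lie far below the others.

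At 19 months the ribosomal protein genes lay slightly lower in *Gde2*KO, and 1 gene was called. The median log2 difference was -0.051 over 85 members tested, against -0.021 over all genes, and 15 of 85 were above 0. By limma 1 of 85 was called lower, Rps13, against 0.0646% of all genes, and 0 were called higher, against 0.0323%. At an unadjusted p under 0.05 there were 8, all lower (Rpl15, Rpl23, Rpl24, Rpl36a, Rpl6, Rps13, Rps15a and Rps7), while 606 of all 18583 genes tested were higher and 679 lower. Every *Gde2*KO library was below every WT library for 17 of 85 (Rpl15, Rpl23, Rpl24, Rpl28, Rpl30, Rpl34, Rpl36a, Rpl37, Rpl4, Rpl6, Rplp0, Rps10, Rps13, Rps14, Rps15a, Rps19 and Rps4x), against 8.32% of all genes, and above for 1 of 85 (Rps26), against 5.85%.

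The separated genes other than Rps13 and Rps15a differed by little. Rpl23, a protein that also binds MDM2, had 3753, 3650.2 and 3794 normalized counts in WT and 3184, 3244 and 3443 in *Gde2*KO (limma, log2 difference -0.18, SE 0.05, adjusted p = 0.614). Rpl36a, an X-linked large-subunit gene, had 1942, 1777 and 1692 in WT and 1537, 1533 and 1648 in *Gde2*KO (-0.20, SE 0.07, adjusted p = 0.691). Rps26, which contacts the mRNA at the exit channel, had 1933, 1982 and 1984 in WT and 2064, 2004 and 2078 in *Gde2*KO (0.06, SE 0.05, adjusted p = 0.776). In each gene the groups were apart, by at most 0.20 on the log2 scale.

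Of the genes named for their role, Rps6 had 6305, 6130.2 and 6753 normalized counts in 19-month WT and 5902, 6105 and 6247 in *Gde2*KO, which overlapped (-0.07, SE 0.05, adjusted p = 0.751 by limma). Rps4x, X-linked, had 5395, 5759 and 5626 in WT and 4875, 5342 and 5332 in *Gde2*KO (-0.11, SE 0.06, adjusted p = 0.723). Among the P-stalk genes, Rplp0 had 4471, 4473 and 4818 in WT and 4186, 4428 and 4447 in *Gde2*KO (-0.08, SE 0.05), Rplp1 differed by 0.06 (SE 0.05) and Rplp2 by -0.06 (SE 0.07). The stalk therefore moved in no common direction at this age.

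Rps13, a small-subunit protein, was the 1 gene called between genotypes. It had 1216, 1192 and 2322 normalized counts in 19-month WT and 284, 376 and 358 in 19-month *Gde2*KO (limma, log2 difference -2.15, SE 0.24, adjusted p = 0.0194). The same low level appeared in 2 of the 4-month libraries, of either genotype: WT had 279.7, 1301 and 1172, and *Gde2*KO had 1284, 1257 and 389.9. Its copy Rps13-ps1 ran the other way, with 1409, 1201 and 24.6 in 19-month WT and 2028, 1829.8 and 1804 in 19-month *Gde2*KO. Rps13 and its copies together had 2641, 2399 and 2353 in WT and 2322, 2219 and 2170.0 in *Gde2*KO, a difference of -0.14 (SE 0.07, adjusted p = 0.708). So Rps13 took 46.1% to 98.7% of the shared reads in 19-month WT and 12.2% to 17.0% in 19-month *Gde2*KO, and their sum was not called. The call of Rps13 alone was also lost without 19-month WT A (limma, -2.30, adjusted p = 0.116) and with TPM (-2.44, adjusted p = 0.102). It was lost as well without the intensity trend and with all 12 libraries fitted together (-2.15, adjusted p = 0.770). Over all alternatives the adjusted p of Rps13 lay between 0.0036 and 0.770. Rps13 lies on chr7 at 116331505-116334195, 16.9 Mb after Gdpd5.

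Rps7, a small-subunit protein that binds MDM2, also ran opposite to a copy in most libraries, but unlike for Rps13 their sum was not steady. It had 8827, 4731 and 7849 normalized counts in 4-month WT, 8452, 952 and 10703 in 4-month *Gde2*KO, 3427, 956 and 5354 in 19-month WT, and 1062, 855 and 931 in 19-month *Gde2*KO. The X-linked copy Gm6472 had 12.1, 889.7 and 10.2, then 11.9, 2684 and 2650.4, then 934, 2040.1 and 39.0, and then 1774, 1989.7 and 1912 in the same groups. Libraries low for Rps7 were high for Gm6472, except for 4-month *Gde2*KO 3, which was high for both. Rps7 and its copies together had 5626 to 8847 in 4-month WT and 3642 to 13359 in 4-month *Gde2*KO. At 19 months they had 2998 to 5394 in WT and 2836 to 2846 in *Gde2*KO. The genotype difference at 19 months was -1.46 (SE 0.52, adjusted p = 0.671 by limma) for Rps7 and -0.54 (SE 0.18, adjusted p = 0.637) with copies added. At 4 months it was -0.64 for Rps7 and 0.02 with copies.

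**Figure D4:**
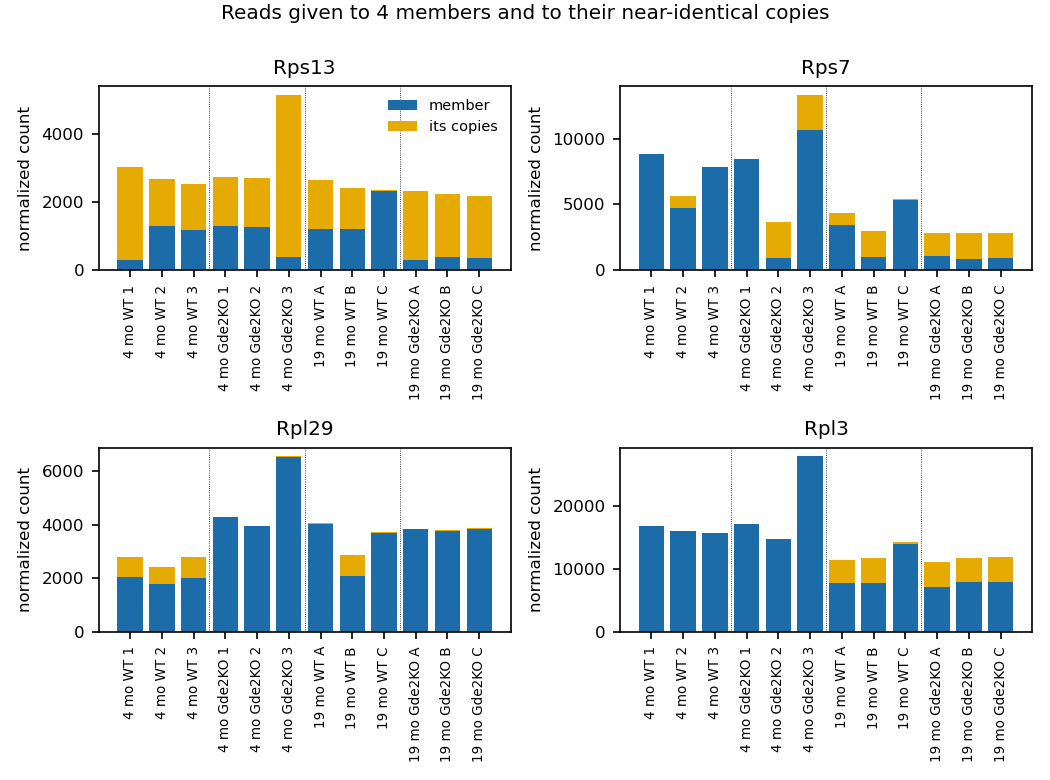
Normalized counts of Rps13, Rps7, Rpl29 and Rpl3 (blue) and, stacked on them, of their near-identical copies (yellow), in each library. In 19-month *Gde2*KO the gene itself holds 12.2% to 17.0% of the sum for Rps13, at most 37.5% for Rps7 and 64.8% to 67.2% for Rpl3, and Rpl29 holds 72.1% to 73.6% in 4-month WT against 99.7% to 99.8% in 4-month *Gde2*KO.

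The stacked bars of gene and copies also show Rpl3, a large-subunit protein near the peptidyl transferase center. It had 7786, 7799 and 14039 normalized counts in 19-month WT and 7171, 7905 and 7866 in 19-month *Gde2*KO, so WT C alone stood out. Its X-linked copy Rpl3-ps1 had 3637, 3953 and 221 in WT and 3891, 3849.6 and 4077 in *Gde2*KO, with its low value in the same library. The genotype difference was -0.31 (SE 0.20, adjusted p = 0.734 by limma) alone and -0.10 (SE 0.08, adjusted p = 0.758) with copies.

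Such copies were common. Counting as a copy any gene with a transcript of which at least 50% of the 31-base words occur in a member, there were 309 copies of 71 members. Of these copies 281 had reads and 30 had a mean of 50 or more, and they touched 26 members. The copies held most of the summed reads for 5 members, Rpl12 (89.9%), Rpl5 (89.3%), Rps3a2 (84.7%), Rps12 (78.6%) and Rps13 (65.2%). For Rpl5, part of the 5S particle, the gene's own level of 609.9 to 1886 normalized counts over the 12 libraries therefore stood for a small part of reads that summed to 6122 to 18714 with its copies. Its share was steady, at 9.25% to 13.6% of the sum in every library, unlike that of Rps13 or Rps7.

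Rps15a, a small-subunit protein, separated the genotypes at 19 months by normalized counts, and its copies held 0.127% of the summed reads. It had 2722, 2549 and 3468 normalized counts in 19-month WT and 1494, 1716 and 1818 in 19-month *Gde2*KO (limma, log2 difference -0.79, SE 0.12, adjusted p = 0.117). By TPM, which also corrects for transcript length, the 19-month genotypes overlapped. Rps15a had 122, 148 and 179 TPM in WT and 144, 141 and 129 in *Gde2*KO. At 4 months it had 1864, 2736 and 2492 normalized counts in WT and 2913, 2553 and 3741 in *Gde2*KO, which overlapped (0.38, SE 0.20, adjusted p = 0.481). Of the 4-month libraries *Gde2*KO 3 was the highest, at 1.49 times the mean of the others, and WT 1 the lowest.

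The transcripts of Rps15a also differed. The share of each transcript within its gene was compared by diffSplice of limma and called at an adjusted p under 0.1 with a difference above 10 points in a transcript's share of TPM. At 19 months 1 of 77 members tested was called, Rps15a (adjusted p = 0.0504), against 0.171% of all genes tested, and 4 had an unadjusted p under 0.05. The call of Rps15a was lost, leaving 0, without WT A, WT C, *Gde2*KO B or *Gde2*KO C. The protein-coding transcript ENSMUST00000106588 held 71.4%, 56.7% and 71.9% of the gene's TPM in WT and 21.2%, 21.9% and 25.7% in *Gde2*KO. ENSMUST00000128482, also protein-coding, held 7.20%, 29.0% and 12.7% in WT and 68.0%, 66.8% and 61.4% in *Gde2*KO. The genotypes did not overlap for either transcript. At 4 months ENSMUST00000106588 held 18.8%, 56.1% and 53.5% in WT and 69.3%, 68.9% and 31.8% in *Gde2*KO, and 0 of 76 members were called by diffSplice, against 0.997% of all genes, with 6 at an unadjusted p under 0.05. Of these Rpl10a had an adjusted p of 0.0207 with shares that moved by at most 2.81 points. Rpl3l also moved by over 20 points at 19 months, from few reads, and did not pass (adjusted p = 0.823).

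**Figure D5:**
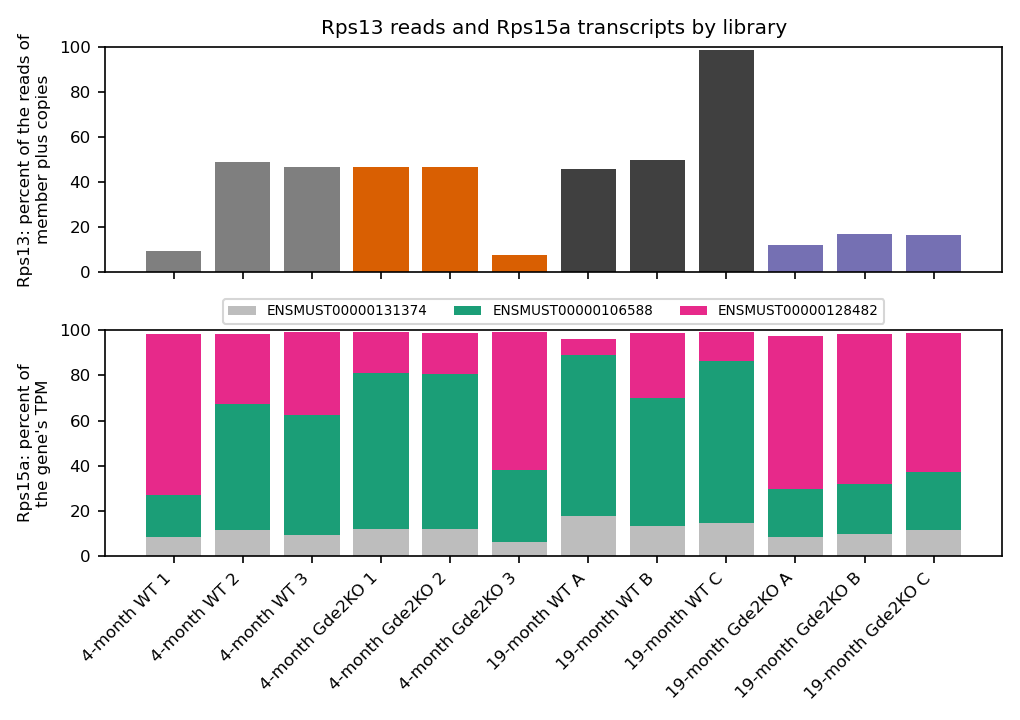
Upper bars give the percent of reads of Rps13 and its copies that went to Rps13, and lower bars the percent of the TPM of Rps15a in its 3 main transcripts, by library. 4-month WT 1, 4-month *Gde2*KO 3 and all of 19-month *Gde2*KO have both the lowest share for Rps13 (7.59% to 17.0%) and the lowest share of ENSMUST00000106588 (18.8% to 31.8%).

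The paired bars of Rps13 and Rps15a show that the same 5 libraries were low for both, 4-month WT 1, 4-month *Gde2*KO 3 and all 3 of 19-month *Gde2*KO. In the other 7 libraries Rps13 had 1172 to 2322 normalized counts, and ENSMUST00000106588 held 53.5% to 71.9% of Rps15a. Both genes lie on chr7, which also carries Gdpd5, with Rps15a at 118104372-118116188, 18.6 Mb after Gdpd5. The part of their position in this shared pattern was not tested. The other members after Gdpd5 on this chromosome are Rpl27a (10.1 Mb) and Rplp2 (42.0 Mb), and neither passed (limma, Rpl27a 0.47, SE 0.31 at 4 months and -0.05, SE 0.06 at 19 months; Rplp2 0.30, SE 0.24 and -0.06, SE 0.07). Mrpl48, a mitochondrial ribosomal protein gene, lies much nearer to Gdpd5 than these members, 1.1 Mb after it. Mrpl48 had 2031, 2054 and 1841 normalized counts in 19-month WT and 971, 883 and 969 in *Gde2*KO (limma, log2 difference -1.07, SE 0.07, adjusted p = 0.00152). At 4 months it had 1831, 1887 and 2074 against 1130.5, 1029 and 1594 (-0.65, SE 0.18, adjusted p = 0.463). The 2 ages of Mrpl48 thus had the same order without overlap, whereas Rps13 and Rps15a separated the genotypes by normalized counts at 19 months alone.

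Whether the genotype difference changed with age was tested in all 12 libraries. By limma 0 of 85 members passed an adjusted p of 0.1, against 0.0107% of all genes with a higher and 0.0374% with a lower difference at 19 months. At an unadjusted p under 0.05 there were 5, Rps3a3 higher and Rpl11, Rpl29, Rps13 and Rps15a lower, and the lowest adjusted p was 0.368. Of all 18731 genes tested, 653 were higher and 1755 lower at that unadjusted p. The median change was -0.457, against -0.150 over all genes, and without 4-month *Gde2*KO 3 it was -0.110, against -0.078.

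The ages were compared within each genotype, with the limit that the Y-linked sums also differed between the ages. In WT the members were a little lower at 19 months, with a median log2 difference of -0.207 against -0.069 over all genes, and 14 of 85 above 0. By limma 6 of 85 were called, 2 higher at 19 months (Rpl39l and Rps3a2) and 4 lower (Rpl10l, Rpl3, Rps3a3 and Rps4l), against 6.29% of all genes called higher and 7.40% called lower. Without 19-month WT A 2 were called, Rpl10l and Rps3a3. In *Gde2*KO 37 of 85 were called, the same 2 higher and 35 lower, against 2.55% and 9.32% of all genes. Those lower comprised 20 of the large and 15 of the small subunit, with log2 differences from -0.73 to -2.22, and the median over members was -0.651, against -0.209 over all genes. All 81 members with a mean of 50 or more were below 0 in *Gde2*KO.

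That count in *Gde2*KO rested on the 4-month library described above. Without 4-month *Gde2*KO 3 it was 7 of 85, 2 higher and 5 lower, and the median was -0.316, against -0.139 over all genes. Rps14, an RNA-binding small-subunit protein, shows the pattern, with 11785, 11165 and 27399 normalized counts in 4-month *Gde2*KO and 6452, 6852 and 6757 in 19-month *Gde2*KO (limma, log2 difference -1.20, SE 0.26, adjusted p = 0.0117). In WT it had 9511, 9143 and 11307 at 4 months and 7485, 7239 and 6944 at 19 months, which did not overlap either but was not called (-0.46, SE 0.26, adjusted p = 0.224). In both genotypes every 19-month library was below every 4-month library.

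Of the 6 called between ages in WT, Rpl39l and Rpl10l are protein-coding paralogs, Rps3a2, Rps3a3 and Rps4l are processed pseudogenes, and Rpl3 is a core large-subunit gene. Rpl39l, the testis-enriched relative of Rpl39, had 0, 0.642 and 0 normalized counts in 4-month WT, 2.66, 0 and 1.46 in 4-month *Gde2*KO, 24.7, 15.2 and 8.38 in 19-month WT, and 17.6, 15.6 and 12.4 in 19-month *Gde2*KO (limma, adjusted p = 0.00501 in WT and 0.0180 in *Gde2*KO). The fitted size depends on the pseudocount, since the 4-month values are at or near 0, and it was at most 1.10% of the TPM of Rpl39 in any library. Rpl10l, the autosomal relative of Rpl10 used in male meiosis, fell from 50.5, 44.8 and 29.3 to 4.66, 7.62 and 9.37 in WT and from 33.8, 37.1 and 30.4 to 8.29, 11.2 and 7.02 in *Gde2*KO (log2 differences -2.46, SE 0.39, adjusted p = 0.00232 and -1.89, SE 0.39, adjusted p = 0.00987). In WT A and *Gde2*KO A at 19 months these values are about 1 estimated read.

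Rps3a2 and Rps3a3, processed pseudogenes of the small-subunit gene Rps3a1, moved in opposite directions. Rps3a2 had 0.980 to 1.15 normalized counts in 4-month WT, 0 to 1.50 in 4-month *Gde2*KO and 41.3 to 71.4 in all 19-month libraries. Its copy Gm13408 had 193 to 311 at 4 months and 61.9 to 133 at 19 months, and with that copy added Rps3a2 was lower at 19 months in both genotypes (-1.02, SE 0.19, adjusted p = 0.00491 in WT and -0.42, SE 0.19, adjusted p = 0.125 in *Gde2*KO by limma). Rps3a3 fell from 149.8 to 221 in 4-month WT to 46.2 to 62.9 in 19-month WT (-1.81, SE 0.25, adjusted p = 0.000933) and from 128 to 155 to 60.9 to 109 in *Gde2*KO (-0.88, SE 0.25, adjusted p = 0.0290). Rpl3 fell by 0.77 (SE 0.24, adjusted p = 0.0434) in WT, while its difference was -0.38 (SE 0.19, adjusted p = 0.163) with Rpl3-ps1 and the other copies added, since Rpl3-ps1 had 0 to 5.84 normalized counts at 4 months. Rps4l had -1.03 (SE 0.38, adjusted p = 0.0748) in WT and -0.06 (SE 0.38, adjusted p = 0.929) in *Gde2*KO.

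The paralogs, and the pseudogene Rps4l, were minor next to their partners, with 1 exception. As a percent of the partner's TPM over the 12 libraries, Rpl3l stood at 0.0586% to 0.333% of Rpl3, Rpl10l at 0.129% to 0.793% of Rpl10, Rpl7l1 at 9.65% to 13.6% of Rpl7, Rps4l at 3.08% to 11.8% of Rps4x, and Rps27l, a p53 target, at 3.46% to 7.26% of Rps27. Rpl22l1, by contrast, reached 63.2% to 101% of Rpl22, with 85.5% to 89.6% in 4-month WT, 83.4% to 101% in 4-month *Gde2*KO, 64.5% to 83.2% in 19-month WT and 63.2% to 72.3% in 19-month *Gde2*KO. Both genotypes overlapped at each age, and every 19-month library was below every 4-month library. By normalized counts, Rpl22l1 was called lower at 19 months in *Gde2*KO (limma, log2 difference -1.08, SE 0.28, adjusted p = 0.0224) and not in WT (-0.52, SE 0.28, adjusted p = 0.207).

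Lists around the ribosome were compared by their medians, without a test of the list. Between genotypes at 4 months, 0 genes were called by limma in any of them, with median log2 differences of 0.23 for other ribosome-associated and TOP genes, 0.20 for translation initiation, 0.00 for TOP regulators, 0.13 for ribosome biogenesis, 0.32 for mitochondrial ribosomal proteins and 0.37 for the respiratory chain, and unadjusted p under 0.05 for 1, 1, 2, 0, 3 and 2 genes of 18, 37, 16, 50, 78 and 89 tested. Without *Gde2*KO 3 the medians were 0.01, 0.04, 0.01, 0.01, 0.07 and 0.07. At 19 months they were -0.05, -0.04, 0.01, -0.03, -0.08 and -0.10, and Mrpl48 was the 1 gene called. Between ages in *Gde2*KO 2, 3, 1, 2, 26 and 45 genes of these lists were called lower and 0 higher, against 9.32% and 2.55% of all genes, and without 4-month *Gde2*KO 3 the counts lower were 0, 1, 1, 0, 3 and 6. Those called with all libraries included Eef1b2, an elongation factor subunit (-0.84), Eif4a2, an initiation helicase (-0.94), and Cox7c of cytochrome oxidase (-1.41). In WT the respiratory chain had 1 called gene lower, Cox7c (-0.87), and 1 higher, Cox6a2 (1.29), and ribosome biogenesis had 1 lower. The respiratory chain, like the ribosomal proteins, had a median below that of all genes between ages in both genotypes, at -0.28 in WT and -0.75 in *Gde2*KO, or -0.45 without 4-month *Gde2*KO 3.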

How the data were processed

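Cortex RNA of 12 mice was measured, 1 library per animal and 3 per group, from polyA-selected paired-end libraries. The submitters' processing notes name bcl2fastq 2.17, Trimmomatic 0.36, STAR 2.5.2b, kallisto and sleuth, with GRCm38 as the build. The authors deposited 2 tables of signal per transcript, normalized counts and TPM, both from kallisto estimates and each divided in sleuth by 1 size factor per library, so they are not raw counts, and TPM totals differ between libraries. Kallisto shares reads that match several transcripts by estimation, so near-identical copies can take reads from a gene. Of 118489 transcripts, 1673 without a gene (0.541% to 0.605% of a library's total) were left out and the rest summed to 36047 genes. The value of 1 estimated read in each library, and from it the depth, was worked out from the deposited values; intervals from counting do not apply to such estimates. No column of per-sample values lacked a group.

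Genes with at least 5 normalized counts in at least 47% of the fitted libraries were tested as log2(value + 0.5) with limma 3.58.1 (R 4.3.3, intensity trend), with p-values adjusted by Benjamini-Hochberg over all genes tested. Fold changes are on that scale, which understates those of low genes. Genotypes were fitted within each age, and ages and the genotype by age term in all 12 libraries. A call needed an adjusted p under 0.1 and a natural-log fold change over 0.5 (log2 0.7213), and for genotype by age the adjusted p alone. For a single gene, 3 libraries against 3 cannot give an exact permutation p under 0.1. Copies were genes with a transcript of which at least 50% of the 31-base words occur in transcripts of a member (GENCODE vM21, GRCm38). Named were members called anywhere, the 8 of largest difference per age, the 8 highest and 6 lowest in TPM, the P-stalk, paralog pairs, X-linked members and a few others of known role; called genes of other lists are given as counts with examples. The members, gene lists and rules were chosen with earlier results of these data known. Some genes are not reported here. Scripts (Python 3.11.15, pandas 2.3.3, numpy 2.4.6, matplotlib 3.10.9) were tested on simulated data. Alternatives covered pseudocount, filter, scaling, TPM, variance model, samples in the fit, copies and each library left out.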

Additional observations from a re-analysis of the deposited data

How the results depend on the processing

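The count of ribosomal protein genes called between genotypes at 4 months (0) was 1, Rpl29, under median-of-ratios scaling, quantile normalization or a fit of all 12 libraries, and 0 to 1 with 1 library left out (1 without WT 3). With the replicate block it was 0, the median difference was 0.385 and the count for transcript usage was 0. Same-numbered 4-month libraries had correlations of 0.0756, -0.0279 and -0.0776 over 14336 genes, and differently numbered ones -0.211 to 0.170. These values do not show whether a shared number marks a pair. At 19 months no block was fitted, because those columns have no replicate number. At 19 months the count (1) was 2 with a pseudocount of 5, a filter at a mean of 50 or quantile normalization, and 0 with TPM, without the intensity trend, with all 12 libraries or with copies added; it was 0 to 2 with 1 library left out (0 without WT A, 2 without WT B). The median at 19 months was -0.028 without both shallow libraries and -0.0645 to -0.0356 with 1 left out, and the median at 4 months 0.055 to 0.580. For genotype by age the count (0) was 0 to 3 (3 without 4-month WT 3). Between ages in WT the count (6) was 3 with a filter at a mean of 50, 2 without both shallow libraries, also without 4-month *Gde2*KO 3 as well, and 2 to 7 with 1 left out. Between ages in *Gde2*KO the count (37) was 21 under median-of-ratios, 20 under quantile normalization, 22 without both shallow libraries, 4 without these and 4-month *Gde2*KO 3, and 7 to 61 with 1 left out (7 without 4-month *Gde2*KO 3, 61 without 4-month *Gde2*KO 2). With copies added, Rps3a2 changed sign between ages, to -1.02 in WT and -0.42 in *Gde2*KO. Calls for transcript usage were 0 to 1 at both ages with 1 library left out; at 4 months 1 appeared without *Gde2*KO 1, and at 19 months that of Rps15a was lost without WT A, WT C, *Gde2*KO B or *Gde2*KO C. Adding copies, and leaving out the 3 libraries together, were chosen after seeing the data. Why the counts and medians moved under these settings was not tested. Depth limits genes of a few counts in 19-month WT A and *Gde2*KO A.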

Other observations

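2 copies of Rpl15, a large-subunit gene, had opposite levels at the ages. Gm10020 had between 339 and 805 normalized counts in the 4-month libraries and at most 4.45 at 19 months, whereas Rpl15-ps3 was at 0 in all of them and had 434 to 775 at 19 months. Rpl15 itself had 3270.0 to 7406 at 4 months and 3662 to 4396 at 19 months.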
